A study of Mus musculus with 6 samples.

Results

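The receptor families through which angiotensin II, endothelin-1, noradrenaline, vasopressin and serotonin contract arteries were examined in mouse abdominal aorta as 10 genes, Agtr1a, Agtr1b, Agtr2, Ednra, Ednrb, Adra1a, Adra1b, Adra1d, Avpr1a and Htr2a. They were taken by gene symbol as members of these families and not by a threshold on their values, though earlier results of these data were known. Each matched 1 of the 55426 gene rows of the deposited table. Of these 10 genes, 9 reached a mean of 0.5 TPM (transcript abundance scaled for transcript length and for the library's total) over the 6 libraries and were tested among the 15775 genes that did so. Agtr2 did not.

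Transcripts were measured by RNA-seq of polyadenylated RNA in 3 libraries from control mice and 3 from mice whose vascular smooth muscle cells (VSMCs) had lost Prdm16, a transcriptional regulator, to learn which aortic transcripts depend on it. The knockout mice (Prdm16 SMKO) carried floxed Prdm16 alleles and Myh11-CreERT2, a tamoxifen-inducible Cre recombinase driven by a smooth muscle myosin promoter. The control mice are described as wild-type with Myh11-CreERT2, so the Cre transgene was shared by both groups. All mice were males on the C57BL/6J background, and the Cre cassette lies on the Y chromosome. By the study's methods, male mice received tamoxifen at 75 mg/kg/day for 5 days at 8 to 10 weeks of age and entered the aneurysm experiments 2 weeks later, while the age of the sequenced mice is not given apart from this. The sequenced aortas came from mice under normal housing without a disease stimulus. The Myh11 promoter is also active in smooth muscle outside the artery. Whole abdominal aorta was sequenced, so endothelial, adventitial, nerve and fat cells contributed to each library.

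Contraction of an artery by these hormones and transmitters runs largely through receptors on VSMCs that couple to G proteins of the Gq family, activate phospholipase C, release calcium from stores and lead to phosphorylation of myosin light chain. The alpha-1 adrenergic receptors receive noradrenaline from sympathetic nerves, and the angiotensin type 1, endothelin A, vasopressin V1a and serotonin 2A receptors receive circulating or locally made agonists. The endothelin B receptor and the angiotensin type 2 receptor stand apart, since on endothelial cells they are linked to release of nitric oxide and to relaxation, while endothelin B on smooth muscle also contracts. Rodents have a pair of genes for the angiotensin type 1 receptor, Agtr1a and Agtr1b, where humans have a single gene.

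Where values are given across the controls or across the knockouts (the Prdm16 SMKO libraries), they stand in the order of replicate 1, 2 and 3. The libraries differed in ways other than genotype. Prdm16 itself was read at 33.4, 36.8 and 30.8 TPM across the controls and at 20.8, 27.7 and 14.8 TPM across the knockouts. All 3 Prdm16 SMKO libraries lay below all 3 control libraries, although reads of the gene were not lost from the whole tissue (log2 fold change -0.70, limma, Benjamini-Hochberg adjusted p = 0.376). A gene-level value cannot tell whether the remaining transcript was intact. The paper also measured Prdm16 by qPCR in abdominal aorta. VSMC markers were abundant in every library, with Acta2, the smooth muscle actin, between 5256 and 13020 TPM. Prdm16 SMKO replicate 1 stood apart on the first principal component of all tested genes, at -63.5 against -15.0 to 31.4 for the other libraries, and it held transcripts of sympathetic neurons, among them Th at 67.6, Dbh at 84.6 and Npy at 235 TPM. Control replicate 2 held Th at 8.43, Dbh at 13.8 and Npy at 39.7 TPM, and in the other 4 libraries Th and Dbh were at 0.13 TPM or less. Prdm16 SMKO replicate 3 had the highest summed level of 6 adipocyte markers, 2516 TPM against 461 to 1000 TPM. Between 15.5% and 31.4% of all TPM went to the ribosomal 45S locus, and between 15.8% and 27.4% to mitochondrial genes.

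The plot of receptor levels shows that 1 receptor gene exceeded all others. On the TPM scale, which is corrected for transcript length, Adra1d averaged 42.7 ± 13.4 TPM in control aortas (SD, n = 3) and Adra1a, the next, 6.00 ± 0.484 TPM. Adra1d alone made up 57.4%, 60.7% and 50.4% of the summed TPM of the 10 genes across the controls, and 38.6%, 43.3% and 38.4% across the knockouts. After Adra1d, control aortas held a closely spaced set of Adra1a, Ednra at 5.73 ± 0.852, Htr2a at 5.70 ± 1.64, Avpr1a at 4.93 ± 0.134 and Agtr1b at 4.77 ± 0.569 TPM, in which the ranges of neighbours overlapped. Ednrb at 2.61 ± 0.617 TPM lay below this set without overlap with Agtr1b. Adra1b at 1.41 ± 0.333 and Agtr1a at 1.14 ± 0.606 TPM followed and overlapped each other. Agtr2 was lowest.

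**Figure D1:**
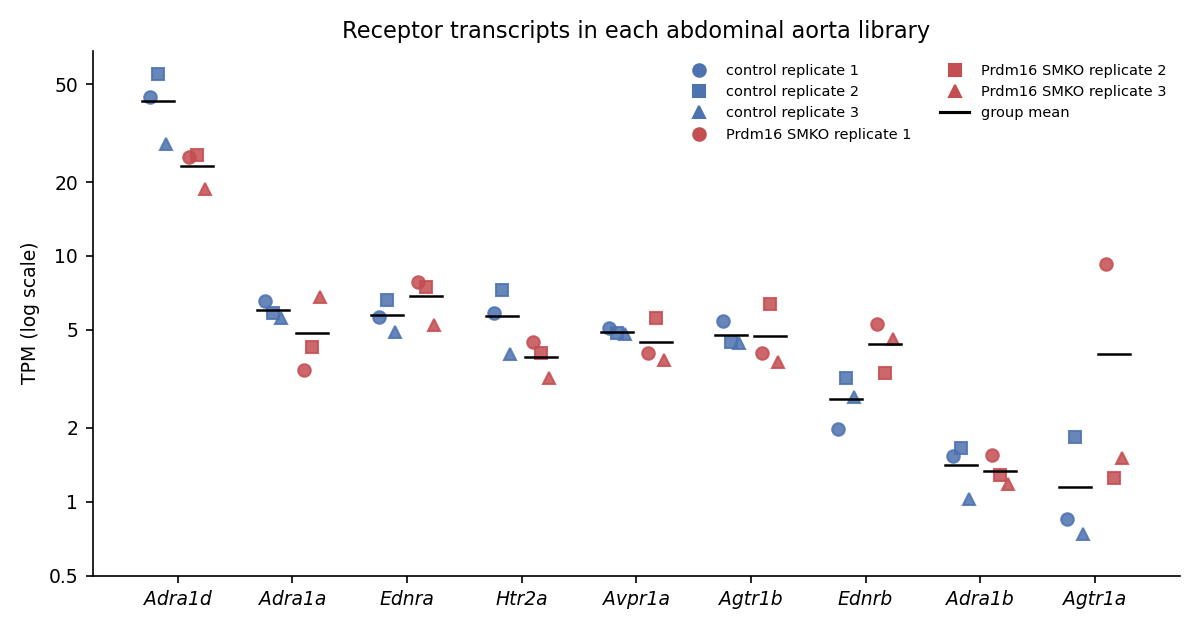
TPM of 9 receptor genes (log scale) in each library, with control libraries in blue, Prdm16 SMKO libraries in red, a symbol for each replicate number and a black line at the group mean (n = 3). Adra1d lies above every other gene in all 6 libraries, and Prdm16 SMKO replicate 1 is alone at 9.27 TPM for Agtr1a. Agtr2, which was at or near 0, is not drawn.

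In Prdm16 SMKO aortas Adra1d also came first, at 23.2 ± 3.92 TPM (SD, n = 3), without overlap with Ednra, the next at 6.86 ± 1.40 TPM. Between Ednra and Htr2a at 3.90 ± 0.660 TPM, every neighbour in the order overlapped the next, and this stretch held Adra1a, Agtr1b, Avpr1a, Ednrb and Agtr1a. The summed level of the 10 receptor genes was 77.4, 90.9 and 56.8 TPM across the controls and 65.2, 59.4 and 48.7 TPM across the knockouts, so the groups overlapped in TPM as deposited. Control replicate 3, the only control among the knockout values, had the largest share of TPM at the ribosomal 45S locus, 31.4%. The sums were not rescaled between libraries, and whether they would then overlap was not tested.

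Between the groups, 3 of the 9 tested receptor genes were higher in Prdm16 SMKO aortas and 6 were lower, with a median log2 fold change of -0.05 against 0.02 over all tested genes. None passed an adjusted p of 0.05 by limma with Benjamini-Hochberg adjustment over 15775 genes, among which 0.355% passed (29 higher and 27 lower). At an unadjusted p under 0.05 there were 2 receptor genes, Adra1d and Ednrb, against 8.74% of all tested genes. The same genes were the 2 whose 3 control and 3 Prdm16 SMKO values did not overlap, a pattern found in 12.8% of all tested genes. Both were chosen out of the set after their values were seen. The libraries are replicates by their labels, and the p-values measure the spread between them. In whole tissue, fewer cells of a type and less RNA per cell cannot be told apart.

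**Figure D2:**
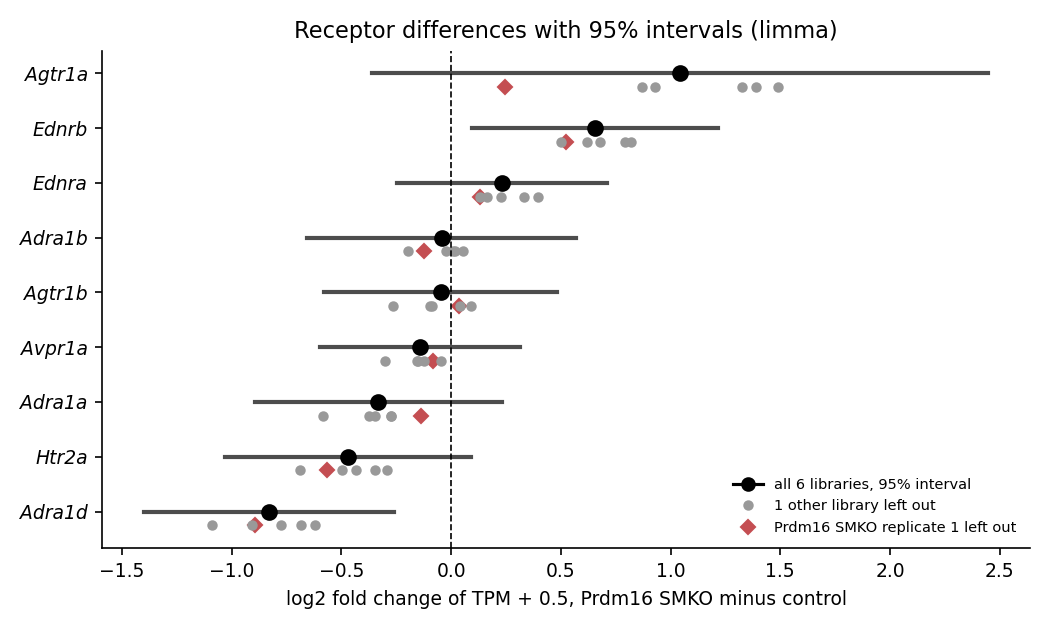
Log2 fold change of TPM + 0.5, Prdm16 SMKO minus control, for the 9 tested receptor genes; black points and lines are the limma estimate and its 95% interval over 6 libraries, and the small symbols below are the estimates with 1 library left out. Intervals of Adra1d and Ednrb lie to one side of 0 before adjustment, and the estimate of Agtr1a moves from 1.04 to 0.25 when Prdm16 SMKO replicate 1 is left out (red diamond).

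Among the alpha-1 adrenergic receptors, which answer noradrenaline, Adra1d lies on chromosome 2 (GRCm38, chr2:131545850-131562283, minus strand). Adra1d was at 44.4, 55.2 and 28.6 TPM across the controls and at 25.2, 25.8 and 18.7 TPM across the knockouts. Every Prdm16 SMKO value lay below every control value, but control replicate 3 and Prdm16 SMKO replicate 2 were close. The log2 fold change was -0.83 (SE 0.25, 95% interval -1.40 to -0.26), a ratio of 0.563, with an unadjusted p of 0.00938 and an adjusted p of 0.338 by limma with Benjamini-Hochberg adjustment. The exact permutation p was 0.1, the smallest that 3 against 3 libraries allow. With any 1 library left out the log2 fold change lay between -1.09 and -0.62. With limma array weights, which give less weight to libraries that vary more, it was -0.89 and the adjusted p 0.0293, under a setting in which 3.13% of all genes passed. With these weights 5 receptor genes had an unadjusted p under 0.05, against 20.1% of all genes, and across every alternative the limma adjusted p spanned 0.0293 to 0.680.

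Markers of VSMCs, the cells in which contractile receptors act, were read beside Adra1d. Among all tested genes, 8552 were higher and 7223 lower, and 8.74% had an unadjusted p under 0.05 by limma. The summed TPM of 12 VSMC markers was 20903, 31312 and 18787 across the controls and 22302, 17697 and 14925 across the knockouts, with 9 of the 12 genes lower, none past the adjusted threshold by limma and 4 at an unadjusted p under 0.05, of which 2 were higher and 2 lower. The mean log2 level of these markers differed by -0.13 between the groups (exact permutation p = 0.7). Set against that mean in each library, Adra1d was lower in Prdm16 SMKO aortas by a log2 difference of -0.70, without overlap between the groups (exact permutation p = 0.1), the smallest p possible. Against the same mean, 5 of the 9 receptor genes did not overlap, namely Adra1d, Htr2a, Ednra, Ednrb and Agtr1a, where 15.0% of all tested genes did not. An antisense gene, Gm14285, shares up to 147 exonic bases with Adra1d on the opposite strand and was listed at 1.63 TPM or less. Whether the counting used strand is not given in the sources used here, so reads of the shared bases cannot be told apart.

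The profile of Adra1d over the 6 libraries was most like that of Kcnh2, a voltage-gated potassium channel gene, and Osbpl3, an oxysterol-binding protein gene. Likeness was the root mean square difference of log2 values centred on each gene's mean, over the 9668 genes that averaged 5 TPM or more. It was 0.0927 for Kcnh2 and 0.116 for Osbpl3, against a median of 0.483. Kcnh2 was at 91.6, 110 and 68.1 TPM across the controls and at 58.9, 57.9 and 43.7 TPM across the knockouts, so it had the same order of high and low libraries among controls as Adra1d. The library size factors and the summed VSMC markers also had this order among controls, so it is not particular to Kcnh2.

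Adra1a, the alpha-1A receptor gene (chr14:66635251-66771168, plus strand), was at 6.54, 5.87 and 5.60 TPM across the controls and at 3.43, 4.26 and 6.84 TPM across the knockouts. Prdm16 SMKO replicate 3 was the highest of all 6 libraries and the other Prdm16 SMKO libraries were the lowest, so the groups overlapped. Its log2 fold change was -0.33 (SE 0.25, 95% interval -0.89 to 0.23, limma adjusted p = 0.839). It was -0.59 without Prdm16 SMKO replicate 3 and -0.14 without Prdm16 SMKO replicate 1. The genes nearest in profile, with root mean square differences of 0.132 and 0.142 against a median of 0.408, were Fam53b and Ier3ip1.

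Adra1b, the alpha-1B receptor gene (chr11:43774606-43901210, minus strand), was the least abundant alpha-1 gene in every library. It was at 1.53, 1.66 and 1.03 TPM across the controls and at 1.55, 1.28 and 1.18 TPM across the knockouts. The groups overlapped throughout. Its log2 fold change of -0.04 (SE 0.27, 95% interval -0.66 to 0.57, limma adjusted p = 0.992) changed sign under 4 alternatives and has no direction.

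Adra1d made up 84.6%, 88.0% and 81.2% of alpha-1 TPM across the controls and 83.5%, 82.3% and 70.0% across the knockouts. These shares overlapped, with Prdm16 SMKO replicate 3 the lowest. The log2 ratio of Adra1d to Adra1b did not overlap, being 4.47, 4.69 and 4.25 across the controls and 3.65, 3.88 and 3.51 across the knockouts. This ratio does not depend on how a library is scaled except through the pseudocount of 0.5 TPM. It differed by -0.79 (exact permutation p = 0.1, adjusted p = 0.45 over 6 receptor pairs), and with any 1 library left out by -0.90 to -0.68. The log2 ratio of Adra1d to Adra1a differed by -0.50 and that of Adra1b to Adra1a by 0.29 (exact permutation p = 0.5 for each), with overlap in both. No pair passed the threshold, which 3 against 3 libraries cannot reach.

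**Figure D3:**
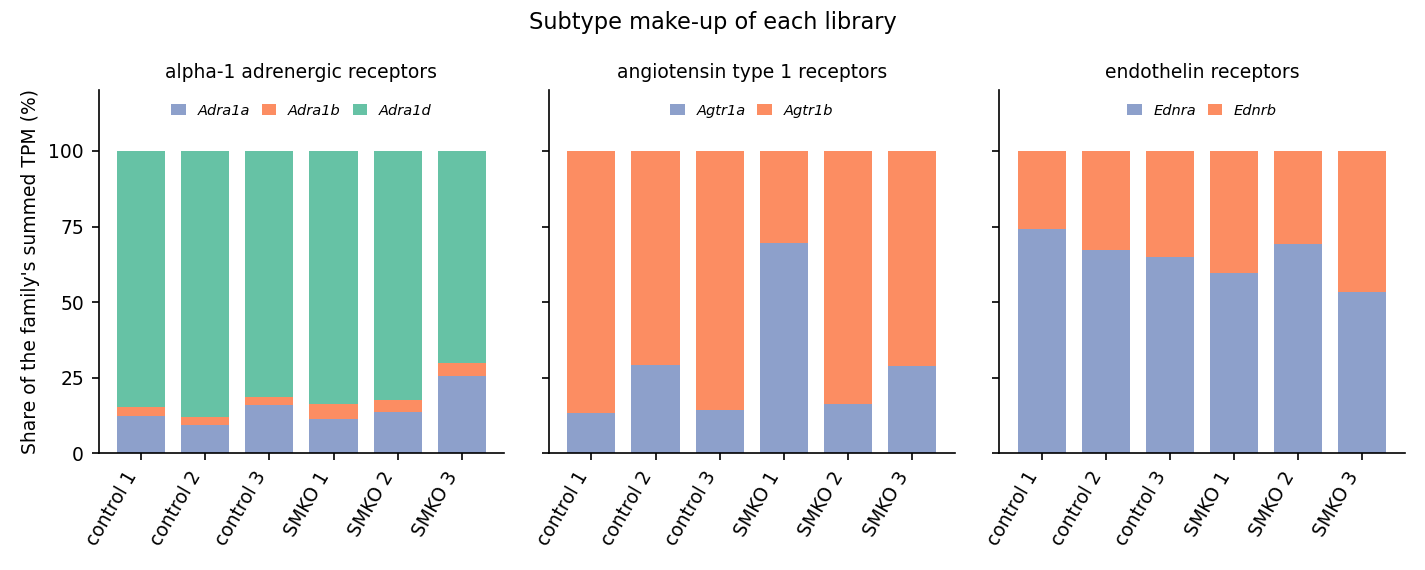
Share of each family's summed TPM (%) taken by its members in each library, for the alpha-1 adrenergic, angiotensin type 1 and endothelin receptors. Adra1d takes 70.0% to 88.0% of alpha-1 TPM in every library, Agtr1b takes the larger part of type 1 TPM in 5 of 6 libraries but 30.3% in Prdm16 SMKO replicate 1, and Ednra exceeds Ednrb in every library.

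Both endothelin receptor genes averaged higher in Prdm16 SMKO aortas. Ednrb, the endothelin B receptor gene (chr14:103814625-103844402, minus strand), was at 1.97, 3.20 and 2.66 TPM across the controls and at 5.29, 3.34 and 4.58 TPM across the knockouts. All Prdm16 SMKO values were above all control values, though Prdm16 SMKO replicate 2 exceeded control replicate 2 only narrowly. The log2 fold change was 0.66 (SE 0.25, 95% interval 0.10 to 1.22), a ratio of 1.58, with an unadjusted p of 0.0267 and an adjusted p of 0.475 by limma. The exact permutation p was 0.1. Leaving out 1 library gave 0.50 to 0.82, and across the alternatives its limma adjusted p spanned 0.0547 to 0.917.

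Endothelin B is also made by endothelial and nerve support cells, and markers of both were read beside it. Among all tested genes, 8552 were higher and 7223 lower, and 8.74% had an unadjusted p under 0.05 by limma. Of 10 endothelial markers 8 were higher in Prdm16 SMKO aortas, with none past the adjusted threshold by limma, and their summed level was 254 to 314 TPM in control libraries and 267 to 500 TPM in Prdm16 SMKO libraries. At an unadjusted p under 0.05 the endothelial markers split into 2 higher, Vwf and Nos3 (log2 fold changes 0.90 and 0.78), and 2 lower, Erg and Cldn5 (-0.50 and -0.54), each without overlap between the groups. That pattern was found in 12.8% of all tested genes. All 10 Schwann cell and neuron markers were higher, with none past the adjusted threshold by limma and 1 at an unadjusted p under 0.05, and they summed to 86.2 to 260 TPM in control and 92.9 to 713 TPM in Prdm16 SMKO libraries. The library with most endothelial transcripts, Prdm16 SMKO replicate 2, had the lowest Ednrb of its group. The library with most Schwann cell and neuron transcripts, Prdm16 SMKO replicate 1, had the highest Ednrb, at 5.29 TPM. The part of these cells in the Ednrb difference was not tested.

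Ednra, the endothelin A receptor gene and the main contractile endothelin receptor of arteries (chr8:77663031-77724464, minus strand), was at 5.67, 6.61 and 4.91 TPM across the controls and at 7.85, 7.47 and 5.26 TPM across the knockouts. Prdm16 SMKO replicate 3 fell within the control range and the other Prdm16 SMKO libraries lay above it. Its log2 fold change was 0.23 (SE 0.21, 95% interval -0.25 to 0.71, limma adjusted p = 0.883). Relative to the VSMC marker mean the log2 difference was 0.36, without overlap (exact permutation p = 0.1). The nearest profiles were those of Parp12 and Ap3m2, with root mean square differences of 0.0460 and 0.0481 against a median of 0.239. A gene on the opposite strand, 4933431K23Rik, shares up to 91 exonic bases with Ednra and was at 0.14 TPM or less.

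Ednrb made up 25.8%, 32.6% and 35.1% of endothelin receptor TPM across the controls and 40.3%, 30.9% and 46.5% across the knockouts. Prdm16 SMKO replicate 2 lay within the control range. The log2 ratio of Ednra to Ednrb differed by -0.43 between the groups (exact permutation p = 0.3, adjusted p = 0.45 over 6 pairs). The sum of both receptors was 7.64, 9.81 and 7.57 TPM across the controls and 13.1, 10.8 and 9.84 TPM across the knockouts, and every Prdm16 SMKO sum was above every control sum, the nearest pair by a small margin.

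The angiotensin type 1 receptors come from paralogous genes that are closely similar in their coding sequence, so the assignment of reads between them was examined first. Over the 1077 coding bases of the GENCODE transcripts (GRCm38), Agtr1a and Agtr1b differed at 99 positions, an identity of 90.8%, and the longest identical run was 66 bases. No stretch of 151 bases, the read length, occurred in transcripts of both genes. The stretch of 60 coding bases with the most differences, positions 964 to 1023, is shown as the part of the coding sequence where the genes differ most. Untranslated bases were not compared position by position. Capitals mark the 13 positions at which the genes differ.
Agtr1a, chr13:30381917-30381976, plus strand: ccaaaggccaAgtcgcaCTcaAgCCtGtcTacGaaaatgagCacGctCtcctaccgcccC
Agtr1b, chr3:20315418-20315477, minus strand: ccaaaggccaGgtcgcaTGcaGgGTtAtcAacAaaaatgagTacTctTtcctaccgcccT

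Agtr1a (chr13:30336441-30382867, plus strand) had the largest standard error of the 9 tested receptors. It was at 0.85, 1.84 and 0.74 TPM across the controls and at 9.27, 1.25 and 1.50 TPM across the knockouts. Prdm16 SMKO replicate 1 was far above the rest, and the other Prdm16 SMKO libraries lay inside the control range. The log2 fold change of 1.04 (SE 0.62, 95% interval -0.36 to 2.44, limma adjusted p = 0.749) became 0.25 without that library, with a limma adjusted p of 0.968. The library with 9.27 TPM was also the one with the most sympathetic neuron transcripts. Control replicate 2, the only other library in which Th and Dbh exceeded 0.13 TPM, had the second highest Agtr1a. The part of nerve cells in the Agtr1a values was not tested.

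**Figure D4:**
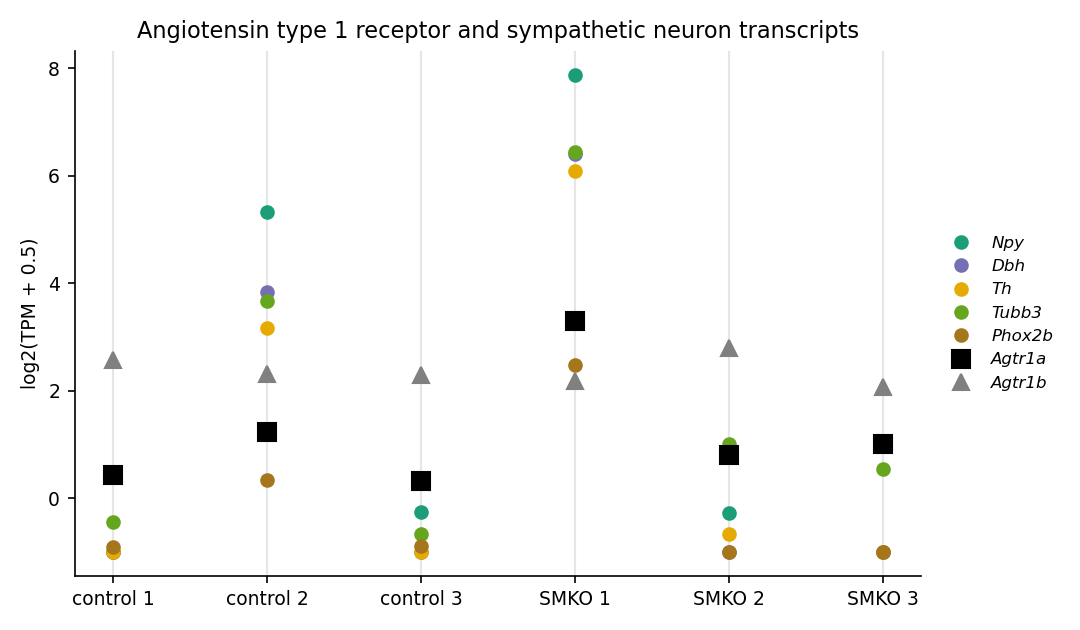
Level on the log2(TPM + 0.5) scale of Agtr1a (black squares), Agtr1b (grey triangles) and 5 sympathetic neuron genes (coloured circles) in each of 6 libraries. Agtr1a and the neuron genes are highest in Prdm16 SMKO replicate 1 and next in control replicate 2, where Agtr1a at 1.84 TPM is close to the 1.50 TPM of Prdm16 SMKO replicate 3, and Agtr1b does not follow this order.

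Agtr1b (chr3:20314473-20367177, minus strand) was at 5.43, 4.47 and 4.42 TPM across the controls and at 4.03, 6.40 and 3.71 TPM across the knockouts. The Prdm16 SMKO group held both the highest and the lowest values. Its log2 fold change of -0.05 (SE 0.23, 95% interval -0.58 to 0.48, limma adjusted p = 0.990) changed sign under 4 alternatives and has no direction. Agtr1b was the more abundant type 1 gene in 5 of 6 libraries, at 86.5%, 70.8% and 85.7% of type 1 TPM across the controls and 30.3%, 83.7% and 71.2% across the knockouts. The log2 ratio of Agtr1a to Agtr1b differed by 1.09 (exact permutation p = 0.2, adjusted p = 0.45 over 6 pairs) and the smallest difference with 1 library left out was 0.21.

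Agtr2, the angiotensin type 2 receptor gene (chrX:21484544-21489164, plus strand), was listed at 0.03, 0.02 and 0.00 TPM across the controls and at 0.09, 0.03 and 0.00 TPM across the knockouts. These values were too low for a test, and the table gives no counts from which a detection limit could be set. The log2 ratio of Agtr1a to Agtr2, which at such levels is set by Agtr1a and the pseudocount, differed by 0.98 (exact permutation p = 0.3).

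Avpr1a, the vasopressin V1a receptor gene (chr10:122448499-122453452, plus strand), had the smallest SD of the tested receptors in control aortas. It was at 5.08, 4.87 and 4.83 TPM across the controls and at 4.03, 5.61 and 3.79 TPM across the knockouts. One Prdm16 SMKO library lay above all controls and the others below them. The log2 fold change was -0.14 (SE 0.20, 95% interval -0.60 to 0.31, limma adjusted p = 0.940).

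Htr2a, the serotonin 2A receptor gene (chr14:74640840-74709494, plus strand), was at 5.88, 7.24 and 3.98 TPM across the controls and at 4.48, 4.03 and 3.18 TPM across the knockouts. Control replicate 3 fell among the Prdm16 SMKO libraries and the other controls were above them. Its log2 fold change was -0.47 (SE 0.25, 95% interval -1.03 to 0.09), with an unadjusted p of 0.0890 and an adjusted p of 0.689 by limma, and an exact permutation p of 0.3. The unadjusted p depended on how libraries were scaled. By limma it was 0.0227 with size factors, 0.00947 with quantile normalization and 0.132 without mitochondrial genes. Across the alternatives the log2 fold change lay between -0.69 and -0.29, and the limma adjusted p spanned 0.136 to 0.987. Set against the VSMC marker mean the log2 difference was -0.34, without overlap (exact permutation p = 0.1).

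The genes around the receptors were read from 5 lists, and 1 gene of these lists passed the adjusted threshold, which 0.355% of all tested genes passed. Of all tested genes 8552 were higher and 7223 lower, with 8.74% at an unadjusted p under 0.05 by limma. The groups did not overlap in 12.8% of all tested genes. These figures are the background for each list below. Of 23 ligands and ligand-processing enzymes 17 were tested, 13 higher and 4 lower in Prdm16 SMKO aortas, with a median log2 fold change of 0.37, none past the threshold by limma and 1 at an unadjusted p under 0.05. That gene was Cma1, a mast cell chymase that can form angiotensin II, at 0.34, 1.0 and 0.25 TPM across the controls and 1.71, 1.54 and 3.84 TPM across the knockouts. Its groups did not overlap (log2 fold change 1.46, limma adjusted p = 0.278). Ace, the angiotensin-converting enzyme gene, averaged 77.8 ± 8.94 TPM in control and 71.3 ± 37.2 TPM in Prdm16 SMKO aortas (SD, n = 3). Maob, a monoamine oxidase gene whose enzyme breaks down amine transmitters, averaged 16.7 and 21.8 TPM in control and Prdm16 SMKO aortas. Edn1, which encodes endothelin-1, had a log2 fold change of 0.36 (limma adjusted p = 0.830). Avp was at 0 in all libraries.

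Of 28 signal transducers downstream of the receptors, 25 were tested, 10 higher and 15 lower, with a median log2 fold change of -0.04, none past the threshold by limma and 1 at an unadjusted p under 0.05. The most abundant were Ppp1r14a, an inhibitor of myosin phosphatase, at 421 ± 89.1 TPM in control and 379 ± 73.3 TPM in Prdm16 SMKO aortas, and Mylk, myosin light chain kinase, at 401 ± 99.4 and 429 ± 82.6 TPM (SD, n = 3). Both differed by less than the spread between libraries. The protein kinase C genes Prkcb and Prkce did not overlap between groups, with log2 fold changes of 0.85 (limma adjusted p = 0.409) and 0.39 (limma adjusted p = 0.673). They were the only 2 of the 25 with this pattern, which 12.8% of all tested genes showed.

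Of 16 genes of receptor desensitization, including the RGS proteins that speed the shutdown of G proteins, 15 were tested, 12 higher and 3 lower, with a median log2 fold change of 0.11. None passed by limma, and 4 had an unadjusted p under 0.05, against 8.74% of all tested genes. These were Rgs4, Rgs2 and Arrb2 in the higher direction and Agtrap, a gene for an angiotensin type 1 receptor-associated protein, in the lower. Rgs4 was at 39.5, 60.8 and 38.8 TPM across the controls and at 117, 82.2 and 81.5 TPM across the knockouts. Every Prdm16 SMKO value was above every control value (log2 fold change 1.02, SE 0.23, limma adjusted p = 0.139, and 0.0113 to 0.441 over the alternatives). Rgs2, an RGS protein selective for Gq, averaged 11.8 ± 1.54 TPM in control and 20.2 ± 5.38 TPM in Prdm16 SMKO aortas (log2 fold change 0.72, limma adjusted p = 0.353). Rgs5, the most abundant of the list, averaged 1993 ± 130 and 2149 ± 424 TPM (SD, n = 3) and overlapped.

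Of 28 other receptors for contractile agonists 19 were tested, 10 higher and 9 lower, with a median log2 fold change of 0.04, none past the threshold by limma and 3 at an unadjusted p under 0.05, 1 higher and 2 lower. Tbxa2r, the thromboxane receptor gene, averaged 23.8 ± 5.95 TPM in control and 14.9 ± 3.16 TPM in Prdm16 SMKO aortas (SD, n = 3), with a log2 fold change of -0.65 (limma adjusted p = 0.455). Adra2a, the alpha-2A adrenergic receptor gene, averaged 5.40 ± 2.95 and 12.3 ± 5.93 TPM, with a log2 fold change of 1.14 (limma adjusted p = 0.437). The groups overlapped for both. The other lower gene at that level, Htr1b, the serotonin 1B receptor gene, averaged 21.2 ± 3.37 and 13.2 ± 4.49 TPM. Its groups did not overlap (log2 fold change -0.71, limma adjusted p = 0.457), a pattern found in 12.8% of all tested genes. P2rx1, an ATP-gated channel gene, and Npy1r, a neuropeptide Y receptor gene, were the most abundant, with log2 fold changes of -0.46 (limma adjusted p = 0.722) and 0.13 (limma adjusted p = 0.940).

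Of 18 vasodilator receptors 16 were tested, 11 higher and 5 lower, with a median log2 fold change of 0.16, 1 past the threshold and 2 at an unadjusted p under 0.05. Calcrl, which encodes the calcitonin receptor-like receptor for CGRP and adrenomedullin, was at 10.2, 13.2 and 11.4 TPM across the controls and at 24.0, 23.8 and 25.1 TPM across the knockouts. It rose by a log2 fold change of 1.04 (SE 0.16, limma adjusted p = 0.0386), and all 3 Prdm16 SMKO values were above all control values. Leaving out any 1 of the 6 libraries kept the log2 fold change between 0.96 and 1.14 but raised the adjusted p to between 0.0811 and 0.190. Drd1, the dopamine D1 receptor gene, was at 0.20, 0.29 and 0.06 TPM across the controls and at 0.89, 1.24 and 1.10 TPM across the knockouts (log2 fold change 1.21, limma adjusted p = 0.288). All its control values lay below the 0.5 TPM minimum, so it was tested only because of its knockout values. Its groups did not overlap, but that filter favoured this direction and the separation adds no support. Npr1, the natriuretic peptide receptor gene with the highest level of the list, averaged 94.4 ± 22.6 and 74.8 ± 5.33 TPM (SD, n = 3). Calcrl is abundant in endothelial cells, whose markers at an unadjusted p under 0.05 were 2 higher (Vwf and Nos3) and 2 lower (Erg and Cldn5), and their part in this result was not tested.

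**Figure D5:**
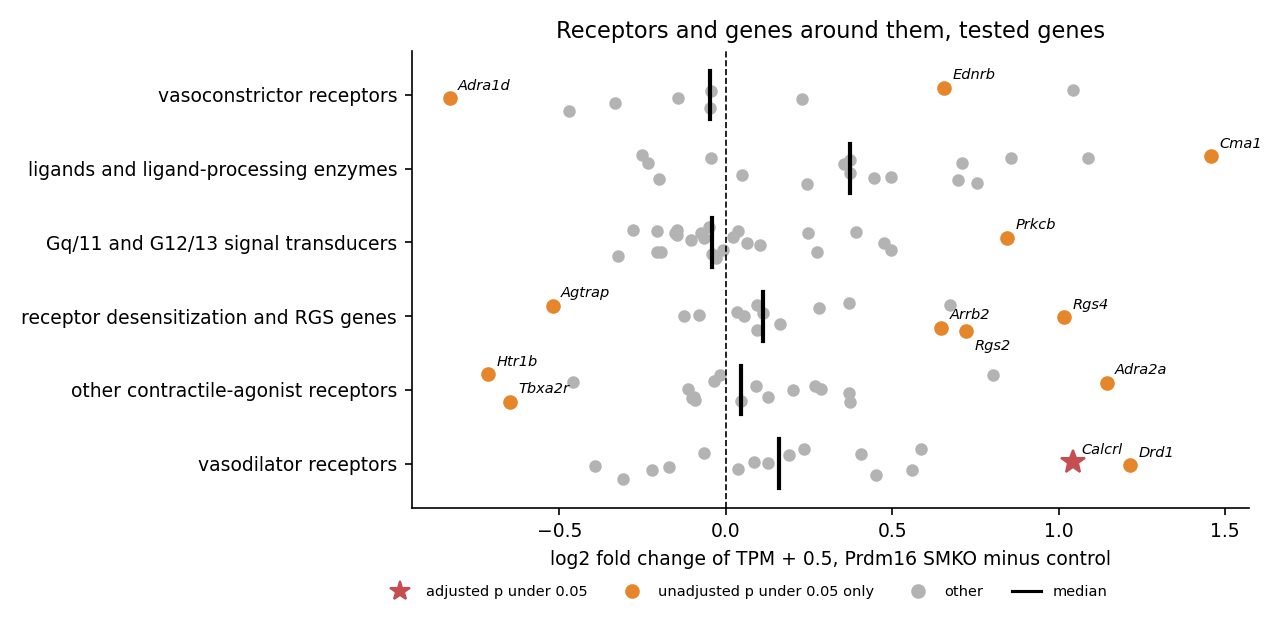
Log2 fold change of TPM + 0.5, Prdm16 SMKO minus control, of each tested gene in the receptor set and in 5 lists of genes around it, with a line at each median and names for genes at an unadjusted p under 0.05. Calcrl is the 1 gene past the adjusted threshold, and the receptor set lies on both sides of 0 around its median of -0.05.

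All 15 immediate-early genes, whose products include factors that are induced within minutes by handling of tissue and by receptors that signal through Gq, were lower in Prdm16 SMKO aortas. Of these, 6 passed the adjusted threshold by limma, Fosb, Egr3, Nr4a1, Nr4a2, Arc and Atf3. Among all 15775 tested genes 7223 were lower, and 0.355% passed the adjusted threshold in either direction. Their summed level with the other 9 was 1265 to 1761 TPM in control and 342 to 719 TPM in Prdm16 SMKO libraries. Nr4a1 fell from 149 ± 32.5 TPM in control to 27.4 ± 8.31 TPM in Prdm16 SMKO aortas (SD, n = 3, limma adjusted p = 0.00762). Ccn1, a secreted matrix-associated protein gene and the most abundant of the list, averaged 635 ± 101 TPM in control and 150 ± 75.9 TPM in Prdm16 SMKO aortas (SD, n = 3, limma adjusted p = 0.0638). With any 1 of the 6 libraries left out, 0 to 4 genes of this and the cell type lists passed. The part of these genes in the receptor values was not tested.

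Markers of further cell types were read beside the receptors, and by limma none passed the adjusted threshold. Among all tested genes, 8552 were higher and 7223 lower, and 8.74% had an unadjusted p under 0.05. Of 8 macrophage markers 7 were higher, 4 of these at an unadjusted p under 0.05, with Lyz2 at 36.1 ± 10.4 TPM in control and 64.3 ± 21.5 TPM in Prdm16 SMKO aortas (SD, n = 3). Of 8 fibroblast markers 7 were higher, none of them at an unadjusted p under 0.05, and the 1 lower marker, Col1a1, was at that level (log2 fold change -0.54, limma adjusted p = 0.447). Of 5 pericyte markers 3 were higher, none at that level. Of 6 adipocyte markers 5 were higher, 1 of these at an unadjusted p under 0.05. Of 7 adrenal markers 2 were tested and both were higher, with Cyp11b2 and Nr5a1 at 0 in all libraries and the list's sum at 18.6 TPM in Prdm16 SMKO replicate 1 against 1.18 to 3.97 TPM in the others. The most abundant marker of each remaining list overlapped between the groups. Pecam1 of endothelial cells averaged 80.3 TPM in control and 123 TPM in Prdm16 SMKO aortas, Dcn of fibroblasts 496 and 585 TPM, Cspg4 of pericytes 169 and 125 TPM, and Ncam1 of the Schwann cell and neuron list 84.7 and 88.8 TPM. Fabp4 of adipocytes averaged 579 and 885 TPM and Chga of the adrenal list 0.783 and 5.40 TPM.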

How the data were processed

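Gene-level values were used as the authors deposited them, in TPM with 2 decimals per library. Per the submitters' processing notes, the tools were bcl2fastq, cutadapt 2.3, FastQC 0.11.8, STAR 2.7.8a, RSEM 1.3.3 and MultiQC 1.7, with the genome build GRCm38, and the annotation release is not given in the sources used here. Libraries were sequenced as 151 bp pairs, and the labels state 1 average depth for all of them. TPM hold no counts, so the depth behind single values is unknown and no counting interval is given.

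The members and gene lists were chosen with earlier results of these data known. Genes averaging 0.5 TPM or more were tested on log2(TPM + 0.5) with limma 3.58.1 (R 4.3.3), genotype only, with moderated variances trended on expression and Benjamini-Hochberg adjustment over 15775 genes, and called at an adjusted p under 0.05. Fold changes on this scale understate those of low genes. Ratios and values of single genes were compared by two-sided exact permutation tests over libraries (scipy 1.17.1). The receptors were all named. Of each pathway list the called genes, the 2 most abundant and the 2 with the smallest p were named, and of each marker list the called genes and the most abundant one. One gene that this rule names is not reported here. Further genes named for an unadjusted p or for their role were chosen after their values were seen. For the 3 most abundant receptors the 2 genes nearest in profile were named. Gene positions are from GENCODE on GRCm38. The fit was tested on simulated data. No 2 libraries held identical values.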

Additional observations from a re-analysis of the deposited data

How the results depend on the processing

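Results were recomputed under 17 alternatives, and, chosen after seeing the data, against the mean of the VSMC markers. Of 161 receptor estimates, 152 kept their direction and side of the threshold and 1, Adra1d with array weights, was newly called. Changes of the expression minimum or of the variance settings and the replicate block leave the log2 fold change as it was. Under these, only the p-value could move. That gave 1 receptor called, against 0 under every other setting, and 5 had an unadjusted p under 0.05 with array weights against 1 to 3 under the others. Adra1b was not tested at a mean of at least 2 TPM. With 1 library left out Agtr1b ran from -0.27 to 0.090, reversing without Prdm16 SMKO replicates 1 or 3 or control replicate 1, and Adra1b from -0.19 to 0.054, reversing without Prdm16 SMKO replicate 3 or control replicates 1 or 2. Against the VSMC mean they reversed to 0.082 and 0.085. The 56 genes called (29 higher, 27 lower) became 10 with no minimum, 153 (60 higher, 93 lower) with size factors, 129 (46 higher, 83 lower) with quantile normalization, 33 without a trend, 112 with robust variances, 494 with array weights, and 5 to 61 with 1 library left out. The 1 call in the pathway lists, Calcrl, became 0 with no minimum, without mitochondrial genes, without a trend and with any library left out (0 to 0), 2 with quantile normalization and 6 with array weights. The 6 marker calls became 0 with no minimum, 2 without a trend, 15 with array weights and 0 to 4 with 1 library left out. Same-numbered libraries deviated with correlations of -0.13, -0.11 and 0.02, which gave no sign of pairing by number. So few correlations, each between single libraries, cannot exclude it. A replicate block gave 4 genes called, 0 in the pathway lists and 1 marker call. No receptor ratio passed under any of 9 alternatives. The cause of these changes was not tested.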
